A study of Mus musculus with 18 samples.

Results

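Integrins are surface receptors made of 1 alpha and 1 beta subunit, and a T cell uses them to stop on vessel walls, to enter and stay in tissue and to hold on to antigen-presenting cells. Partner choice decides the ligand. The alphaE subunit pairs with beta7 to form CD103, which binds E-cadherin on epithelium, alpha4 pairs with beta1 (VLA-4, for VCAM-1 and fibronectin) or with beta7 (the gut-homing receptor for MAdCAM-1), alphaL pairs with beta2 (LFA-1, for ICAMs), alpha6 with beta1 binds laminin, and alphaV pairs with several beta subunits, among them beta1, beta3, beta5 and beta8. The 8 genes described here encode these subunits (Itgae, Itga4, Itgb7, Itgb1, Itgal, Itgb2, Itgav and Itga6). They were chosen by name, with earlier results of these data known. All 8 were present among the 15402 genes of the table, and all 8 passed the filter on low values.

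RNA was sequenced from 6 populations of CD4+ T cells, with 3 replicates each (18 libraries), each replicate being a pool of 3 mice. All mice were female and carried both a Foxp3Timer transgene and a Foxp3-IRES-GFP allele on the C57/BL6 strain. The labels give no age, and the study's methods give 5 to 10 weeks for mice sensitised with oxazolone. All had received 3% oxazolone, a contact sensitiser, on the abdominal skin 5 days before the draining lymph nodes were taken, so no population came from an untreated mouse. Foxp3Timer reports Foxp3 transcription through a fluorescent protein that is blue when new and turns red with age. Tnaive and Teff cells were negative for Timer and GFP and were low or high for CD44, a marker of antigen experience. The other 4 populations were GFP+ Timer+ regulatory T (Treg) cells sorted on colour: Pers1 with intermediate blue and low red (the cells labelled as new Foxp3 expressers), Pers2 high in both colours, PAt high in red with little blue, and Arrested with intermediate red and no blue. Pers1 and Pers2 are the cells with persistent Foxp3 transcription, whereas in PAt and Arrested cells it was low or had ceased. The sort rests on Timer colour, and the time a cell had spent in a gate was not measured.

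The deposited values are log2 normalised counts, so a difference of 1 is a 2-fold difference. The depth of each library is unknown, as no read counts were used. SD values come from the 3 replicates of a population. SE values, intervals and p-values come from a limma fit of all 18 libraries together. A gene was called where limma gave an adjusted p under 0.05 and a log2 fold change above 1 in size, over 13190 genes tested. Of 7 CD4 T-cell markers, 6 were in the table, and their summed level ran from 16.52 to 17.06 in the 18 libraries. Of these 6, 1 was called higher in Teff than in Tnaive, where 8.88% of all genes were. In PAt and Arrested, 2 of the 6 were called lower than in Teff, where 4.04% of all genes were. The Teff libraries also held more RNA of other cell types. The summed dendritic cell markers (7 of 7 in the table) ran from 12.03 to 12.46 in Teff against 10.47 to 11.01 elsewhere, those of B cells (7 of 7) from 12.72 to 13.26 against 9.89 to 12.39, and those of monocytes or macrophages (6 of 7) from 10.64 to 10.98 against 8.27 to 9.44. Siglech, which defines plasmacytoid dendritic cells, was 10.62 ± 0.41 (SD, n = 3) in Teff and had means of 3.58 to 4.30 in the other populations. B cell markers also differed between the other populations, with summed levels of 9.89 to 10.40 in Tnaive, 11.26 to 11.47 in Pers1 and Pers2, and 11.81 to 12.39 in PAt and Arrested. All 7 were called higher in PAt and Arrested than in Tnaive (median log2 fold change 1.83), where 6.63% of all genes were. In Pers1 and Pers2, 3 of 7 were called lower than in PAt and Arrested (median -0.79), where 2.77% of all genes were. The part of these cells in any difference given below was not tested. In such sorted bulk samples, fewer cells with a transcript and less of it per cell cannot be told apart.

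Each subunit had its own pattern over the 6 populations. Itgae, Itgb1 and Itga4 covered the widest ranges, with 7.53, 4.80 and 3.48 on the log2 scale between their highest and lowest population mean. The ranges of Itga6, Itgav and Itgal were 1.38, 1.30 and 1.28. Itgb7 and Itgb2 had ranges of 0.67 and 0.30. In the plot of the 8 genes by library, the leukocyte beta subunits Itgb7 and Itgb2 spanned less than their alpha partners did.

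**Figure D1:**
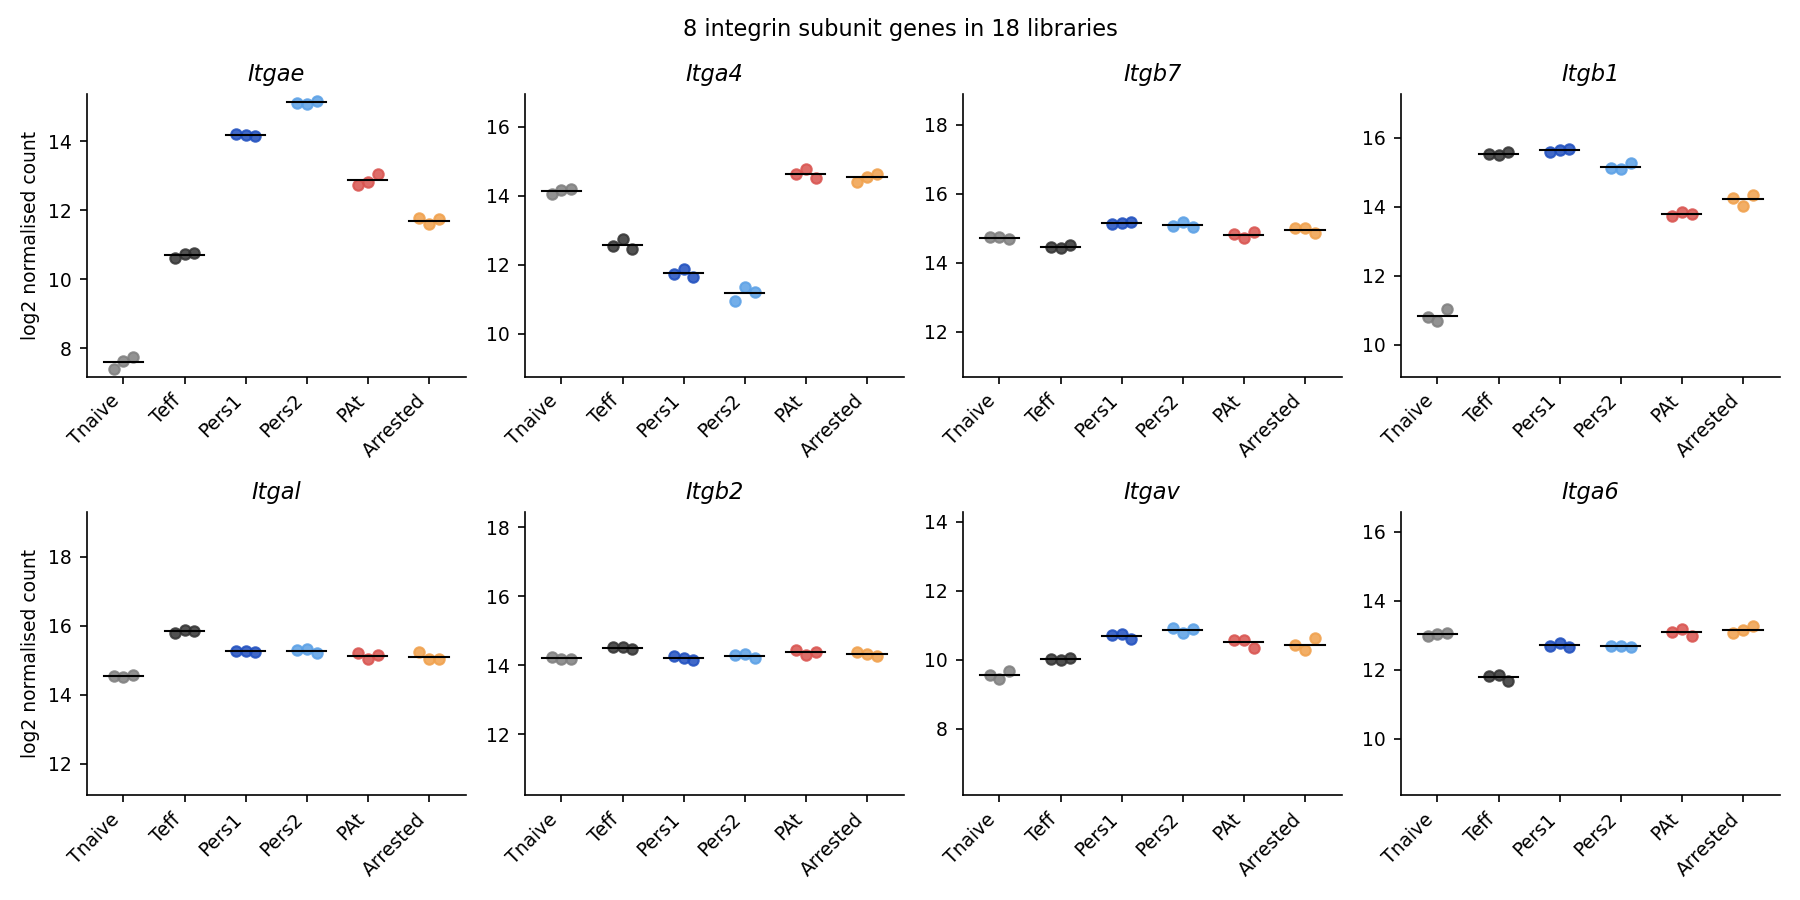
Log2 normalised count of each of the 8 subunit genes (y axis, the same span in every panel) in the 6 populations (x axis). Points are the 3 replicates and bars their mean. Itgae climbs from a mean of 7.59 in Tnaive to 15.12 in Pers2, Itga4 dips to 11.17 in Pers2, Itgb1 is lowest in Tnaive at 10.84, and Itgb2 stays between 14.21 and 14.51.

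The comparison of persistent cells (Pers1 with Pers2) with PAt and Arrested cells sets apart Treg cells by ongoing Foxp3 transcription. The paper also takes higher Mki67 in the persistent cells as a sign of activation and division. Foxp3 transcription, activation and division cannot be told apart in this comparison, in which 3 of the 8 genes were called. Itgae (log2 fold change 2.36 ± 0.06, SE) and Itgb1 (1.40 ± 0.06) were higher in persistent cells and Itga4 (-3.12 ± 0.07) was lower, with adjusted p = 3.5e-18, 5.3e-15 and 8.7e-19. Of all genes tested, 4.74% were called higher and 2.77% lower. The median log2 fold change of the 8 genes was 0.19 against -0.01 over all genes, and their median size 0.37 against 0.28. The B cell markers were lower on the persistent side of this comparison, and their part in the 3 calls was not tested.

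Teff and Tnaive, both negative for Timer and GFP, were sorted as high and low for CD44, the marker of antigen experience. Between them, 5 of the 8 were called. Itgb1 (4.69 ± 0.08, adjusted p = 1.0e-20), Itgae (3.11 ± 0.08, 5.1e-18) and Itgal (1.28 ± 0.06, 3.8e-14) rose, and Itga4 (-1.55 ± 0.09, 7.6e-12) and Itga6 (-1.25 ± 0.06, 1.0e-13) fell. The background was 8.88% higher and 2.28% lower. The median size of the change was 1.26 for the 8 genes and 0.26 for all genes. The summed markers of dendritic cells, B cells, monocytes or macrophages and CD8 T cells were also higher in Teff than in Tnaive. Their part in the 5 calls was not tested.

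**Figure D2:**
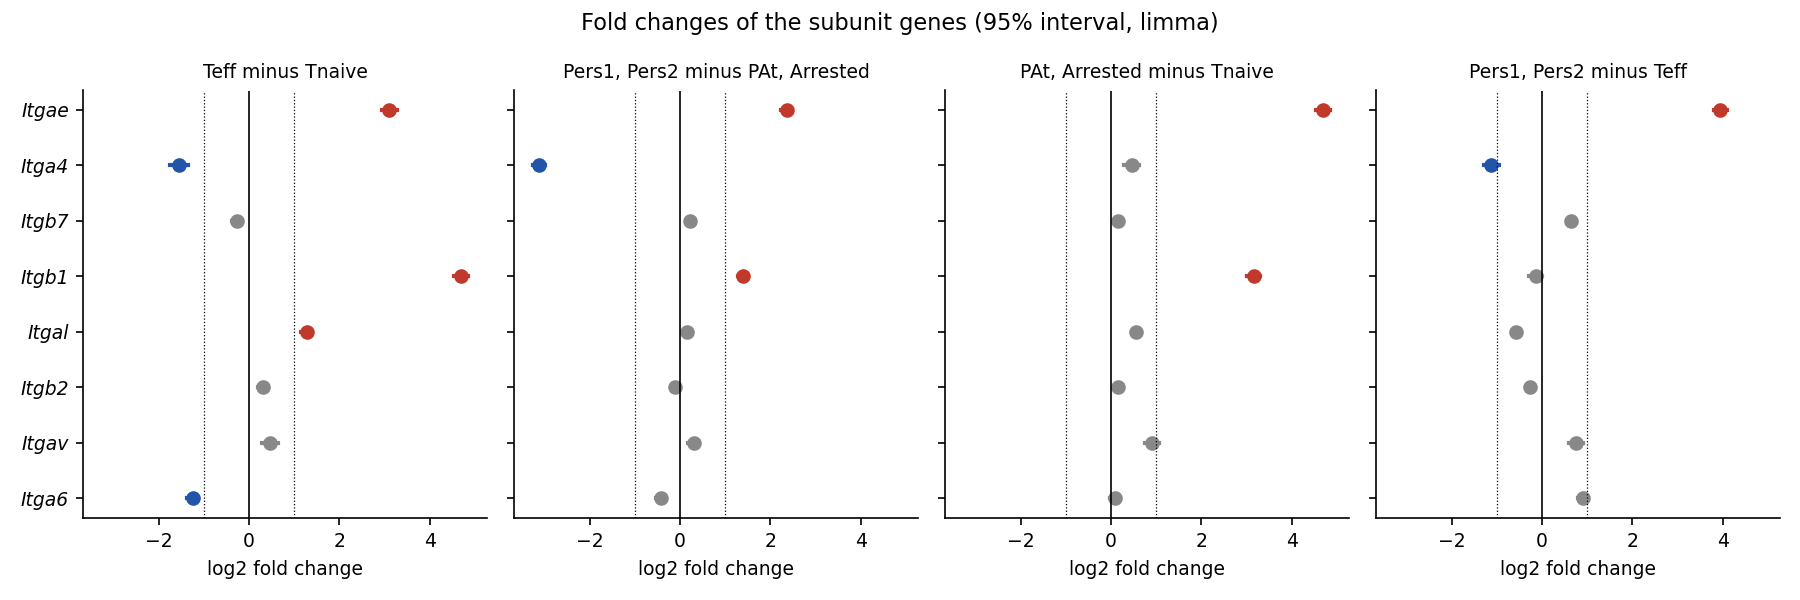
Log2 fold change (x axis) of each subunit gene (y axis) in 4 comparisons, with 95% intervals from limma. Red and blue points are called higher and lower, grey points are not called, and dotted lines mark the fold threshold of 1. Itgae is called higher in all 4 comparisons shown, and Itga4 is lower in all but PAt and Arrested against Tnaive, where it is 0.46.

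Itgae encodes the alpha chain of CD103, a receptor of T cells that sit in or near epithelium. Its log2 level was 7.39, 7.62 and 7.74 in the 3 Tnaive libraries and 10.62, 10.72 and 10.76 in Teff. In the persistent cells it was 14.21, 14.18 and 14.15 (Pers1) and 15.10, 15.08 and 15.17 (Pers2). PAt libraries had 12.73, 12.82 and 13.06, and Arrested libraries 11.78, 11.61 and 11.73. No 2 populations overlapped, and the order was Pers2, Pers1, PAt, Arrested, Teff, Tnaive. Every pair of populations was called except Pers1 and Pers2, whose difference of 0.94 (95% interval 0.77 to 1.10, adjusted p = 3.4e-07) lay under the fold threshold. As a fold, Pers1 and Pers2 were 5.14 times PAt and Arrested, and Teff was 8.64 times Tnaive.

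The lowest Treg population still held more Itgae RNA than Teff. Arrested exceeded Teff by 1.01 (95% interval 0.84 to 1.17, adjusted p = 1.3e-09), an estimate that lies at the fold threshold. PAt and Arrested together were 4.70 ± 0.07 above Tnaive (adjusted p = 3.6e-22) and 1.59 ± 0.07 above Teff (5.1e-14). Within the Treg cells Itgae was the one subunit of the 8 called between Arrested and PAt, at -1.16 ± 0.08 (adjusted p = 2.7e-08). This comparison had few calls, with 0.0455% of genes higher and 0.0758% lower. Between Pers2 and Pers1 none of the 8 passed both thresholds by limma, where 0.144% of genes were higher and 0.0455% lower. Without the fold threshold, 3 of them (Itgae, Itga4 and Itgb1) had an unadjusted and an adjusted p under 0.05. Of all genes, 10.6% had an adjusted p under 0.05 there. The log2 differences of the 3 were 0.94, -0.59 and -0.48.

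Itgae lies on chromosome 11 (73090583 to 73147446, plus strand, GRCm38, GENCODE vM21 gene model), with 31 exons in its longest coding transcript. The histone kinase gene Haspin, listed under its older symbol Gsg2, lies within the Itgae span on the opposite strand, over 2810 bp and with no base shared between exons of the 2 genes. It was looked up for this overlap, after its values could be seen. The log2 level of Gsg2 was 7.99 ± 0.05 in Tnaive and 8.79 ± 0.19 in Teff, and among Treg cells 11.03 ± 0.05 (Pers1), 11.72 ± 0.07 (Pers2), 10.30 ± 0.15 (PAt) and 9.36 ± 0.21 (Arrested) (SD, n = 3), which is the order of Itgae. Gsg2 was higher in persistent cells than in PAt and Arrested by 1.55 ± 0.07 (adjusted p = 6.2e-14) and in Teff than in Tnaive by 0.80 ± 0.10, under the fold threshold. Pearson's r between the 2 genes over the 18 libraries was 0.971, a description over libraries that share populations. The library kit marks strand, but whether reads were counted by strand is not given in the sources used here, so reads of Itgae introns and reads of Haspin cannot be told apart in these values.

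Itga4 encodes the alpha4 chain, which takes T cells to inflamed vessels as VLA-4 and to gut vessels with beta7. On the log2 scale its level was 14.04, 14.16 and 14.19 in Tnaive and 12.55, 12.74 and 12.45 in Teff. It was lowest in the persistent cells, at 11.74, 11.87 and 11.65 in Pers1 and 10.94, 11.36 and 11.21 in Pers2. It stood at 14.64, 14.78 and 14.51 in PAt and 14.41, 14.54 and 14.63 in Arrested. Thus PAt and Arrested, whose libraries overlapped each other, lay slightly above Tnaive, and Teff lay between Tnaive and the persistent cells. PAt and Arrested were 8.72 times the persistent cells as a fold. Their distance from Tnaive was 0.46 ± 0.08 (adjusted p = 7.9e-05), under the fold threshold, and from Teff 2.01 ± 0.08 (adjusted p = 1.6e-14). The persistent cells were lower than Teff by 1.12 on the log2 scale (log2 fold change -1.12 ± 0.08, adjusted p = 1.7e-10), with Pers2 called on its own (Teff above Pers2 by 1.41) and Pers1 not (0.83).

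The Itga4 gene (chromosome 2, 79255426 to 79333123, plus strand, 28 exons) overlaps Cerkl, a ceramide kinase-like gene on the opposite strand, over 2581 bp, of which 1124 bp are exon on exon. Cerkl was among the 3 genes whose pattern was most like that of Itga4 (r = 0.987 over 18 libraries). It fell from 10.28 ± 0.22 in PAt and 10.22 ± 0.27 in Arrested to 7.93 ± 0.18 in Pers1 and 7.62 ± 0.06 in Pers2, with -2.47 ± 0.11 in the comparison (adjusted p = 6.5e-14). Without the counting rule for strand, the values of both genes are uncertain where their exons overlap.

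Itgb1 encodes beta1, the common partner of the laminin, collagen and fibronectin receptors, and is high on antigen-experienced T cells. Its log2 level was 10.80, 10.68 and 11.04 in Tnaive and 15.52, 15.50 and 15.57 in Teff. Pers1 had 15.59, 15.65 and 15.67 and Pers2 had 15.12, 15.09 and 15.25. PAt had 13.72, 13.85 and 13.78, and Arrested had 14.26, 14.03 and 14.34. Tnaive therefore stood below every other library by more than 2 on the log2 scale. Teff was 25.9 times Tnaive, and PAt and Arrested were 8.93 times Tnaive (log2 3.16 ± 0.07, adjusted p = 2.2e-19). The persistent cells and Teff differed by -0.14 (95% interval -0.28 to 0.00, adjusted p = 0.0886), and the interval does not reach the fold threshold. Pers1 against Teff gave a difference of 0.10 (lowest Pers1 library 15.59, highest Teff library 15.57, adjusted p = 0.288), whereas Teff was 0.38 above Pers2 (adjusted p = 0.000363). PAt and Arrested were lower than Teff by 1.53 on the log2 scale (-1.53 ± 0.07, adjusted p = 5.8e-14). Arrested was 0.43 above PAt (adjusted p = 0.00227, under the fold threshold), the opposite sign to Itgae.

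Itgb7 encodes beta7, the partner of both alphaE and alpha4, and was close to level. The beta7 transcript had log2 levels of 14.76, 14.74 and 14.70 in Tnaive, 14.47, 14.43 and 14.51 in Teff, and 15.11, 15.14 and 15.18 in Pers1. It was 15.06, 15.17 and 15.05 in Pers2, 14.83, 14.73 and 14.88 in PAt, and 15.02, 15.00 and 14.86 in Arrested. Neighbours in the order of means overlapped for Pers1 and Pers2, for Arrested and PAt, and for PAt and Tnaive. No pair of populations was called, and the largest difference, Pers1 over Teff, was 0.67 (95% interval 0.57 to 0.78, adjusted p = 6.7e-10). The differences were small beside the fold threshold but larger than the spread between replicates, at 0.23 ± 0.04 for persistent cells against PAt and Arrested (adjusted p = 1.0e-05) and -0.26 ± 0.05 for Teff against Tnaive (0.000183).

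Since alpha4 meets beta1 or beta7, and the 3 genes moved in 3 ways, their RefSeq promoters are shown (GRCm38.p6, 250 bases before to 50 after the start, 5′ to 3′ on the gene's strand). Of the 8 genes 4 had an entry, and Itgae, Itgal, Itgb2 and Itga6 had none. Capitals mark matches, on either strand, to the RUNX core TGTGGT, the GC box GGGCGG, the AP-1 motif TGANTCA or the ETS core CCGGAAG. No 2 of these motifs overlap here.
Itga4 (chr2:79255176-79255475, plus strand): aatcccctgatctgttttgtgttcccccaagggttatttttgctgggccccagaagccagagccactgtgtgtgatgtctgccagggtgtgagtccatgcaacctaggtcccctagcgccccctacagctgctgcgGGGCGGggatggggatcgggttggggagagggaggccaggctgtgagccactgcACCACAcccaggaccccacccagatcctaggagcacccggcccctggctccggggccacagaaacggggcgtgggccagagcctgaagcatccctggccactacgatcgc
Itgb1 (chr8:128685404-128685703, plus strand): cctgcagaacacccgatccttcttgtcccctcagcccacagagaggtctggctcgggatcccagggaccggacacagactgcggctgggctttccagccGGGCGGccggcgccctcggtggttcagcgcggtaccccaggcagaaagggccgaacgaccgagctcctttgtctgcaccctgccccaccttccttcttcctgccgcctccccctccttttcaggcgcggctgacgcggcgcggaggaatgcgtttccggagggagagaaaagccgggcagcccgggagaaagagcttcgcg
Itgb7 (chr15:102231886-102232185, minus strand): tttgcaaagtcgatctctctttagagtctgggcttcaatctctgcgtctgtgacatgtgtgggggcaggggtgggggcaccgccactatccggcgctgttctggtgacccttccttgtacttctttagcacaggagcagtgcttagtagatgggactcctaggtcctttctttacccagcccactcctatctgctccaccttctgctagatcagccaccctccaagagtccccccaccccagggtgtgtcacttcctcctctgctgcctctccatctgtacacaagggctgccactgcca
The Itga4 window held 1 RUNX core, read as its reverse complement, and 1 GC box, the Itgb1 window held 1 GC box, and the Itgb7 window held no match. The G and C content was 64.3%, 67.3% and 56.3%, with a median of 52.7% over all promoters. Of 32851 promoters of this length, 16.8% held the RUNX core, 35.7% the GC box, 7.8% the AP-1 motif and 8.9% the ETS core. The matches are a description of these letters only.

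The balance between partners was read within each library, as alpha minus beta on the log2 scale and relative to its mean in Tnaive, which removes gene length. Itgae against Itgb7, the pair that makes CD103, stood 3.38 above Tnaive in Teff and, in Treg cells, 6.19 (Pers1), 7.17 (Pers2), 5.20 (PAt) and 3.90 (Arrested) above it. Itga4 against the same beta subunit went the other way, to -1.28 in Teff, -2.78 in Pers1 and -3.31 in Pers2, and stood at 0.44 in PAt and 0.18 in Arrested. The SD over the replicates of a population was, for these 2 pairs, between 0.06 and 0.21. From PAt and Arrested to the persistent cells, the difference Itgae minus Itgb7 changed by 2.13 and Itga4 minus Itgb7 by -3.36, with no overlap of libraries in either. These are descriptions of RNA, with no test, and the values used here hold no surface protein. The paper measured surface markers by flow cytometry across Timer loci, and its methods list a CD103 antibody. Those protein data were not used here.

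With beta1 the balance moved in 1 direction for all 3 alpha partners, as Itgb1 was lowest in Tnaive. Itga4 minus Itgb1 relative to Tnaive was -6.24 in Teff, -7.17 in Pers1 and -7.28 in Pers2, and came back to -2.43 in PAt and -2.97 in Arrested. Itga6 minus Itgb1 was -5.94 in Teff and between -5.11 and -2.89 in the Treg populations, and Itgav minus Itgb1 was -4.23 in Teff and between -3.66 and -2.01. Per kilobase of the longest coding transcript, Itgb1 was 4.40 log2 units below Itgb7 in Tnaive (log2 level difference -4.40 ± 0.21, SD, n = 3). The same difference was 0.56 ± 0.01 in Teff, and in Treg cells -0.02 ± 0.01 (Pers1), -0.44 ± 0.14 (Pers2), -1.54 ± 0.13 (PAt) and -1.25 ± 0.23 (Arrested). Per length, then, beta1 RNA lay far under beta7 RNA in Tnaive, above it in Teff and level with it in Pers1.

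**Figure D3:**
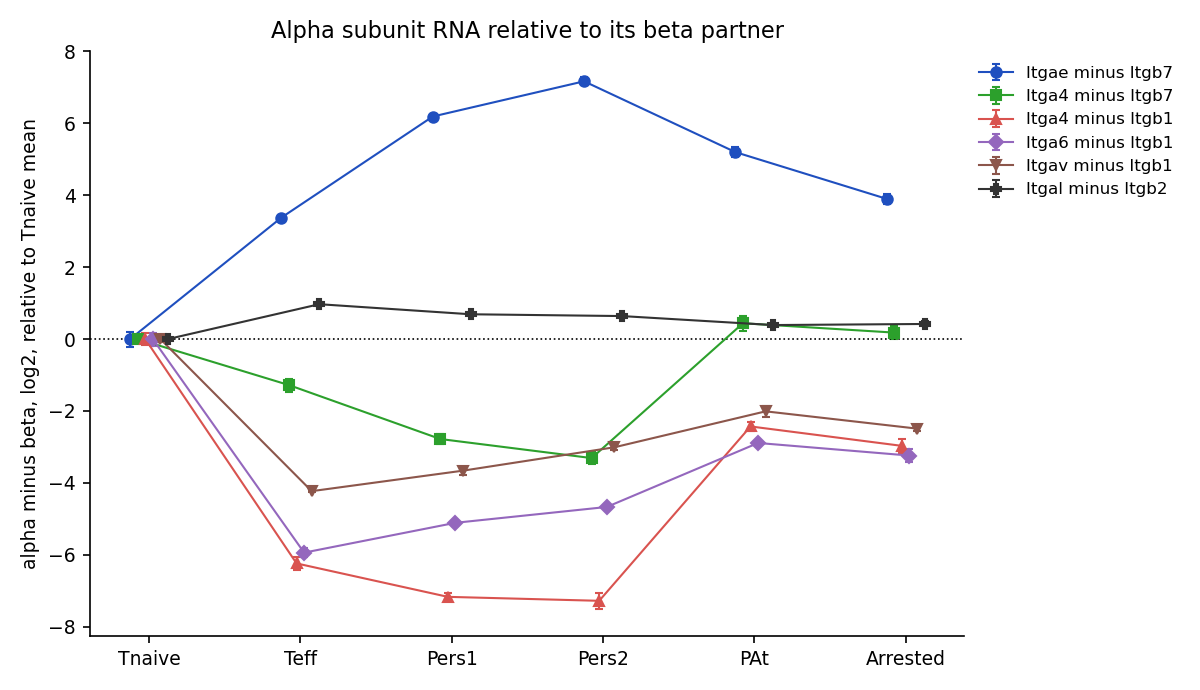
Alpha minus beta subunit RNA within each library (y axis, log2, set to 0 at the Tnaive mean) for 6 pairs in the 6 populations (x axis). Points are means of 3 replicates, error bars their SD, and lines only join the points of a pair. Itgae over Itgb7 peaks at 7.17 in Pers2, Itga4 over Itgb7 is lowest there at -3.31, and Itgal over Itgb2 stays between 0.39 and 0.97 outside Tnaive.

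Itgal and Itgb2 encode the chains of LFA-1, which holds the contact between T cells and antigen-presenting cells. The log2 level of Itgal was 14.55, 14.52 and 14.58 in Tnaive and 15.79, 15.86 and 15.84 in Teff. Pers1 had 15.27, 15.26 and 15.22, Pers2 15.28, 15.33 and 15.21, PAt 15.21, 15.03 and 15.14, and Arrested 15.23, 15.04 and 15.03. The 4 Treg populations sat together between Tnaive and Teff, and the one call among the 15 pairs of populations was Teff against Tnaive. All Treg populations were above Tnaive by 0.55 to 0.72 and under Teff by 0.56 to 0.73. Persistent cells against PAt and Arrested gave 0.15 ± 0.04 (adjusted p = 0.00237), and the other 2 comparisons within Treg cells gave adjusted p = 0.885 (Pers2 against Pers1) and 0.876 (Arrested against PAt).

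Itgb2, the beta chain of all leukocyte beta2 receptors, had the narrowest range of the 8. Its log2 level ran from 14.19 to 14.23 in Tnaive, 14.49 to 14.52 in Teff, and in Treg cells 14.17 to 14.26 (Pers1), 14.22 to 14.33 (Pers2), 14.30 to 14.45 (PAt) and 14.28 to 14.40 (Arrested). Teff was higher than Tnaive by 0.30 ± 0.05 (adjusted p = 1.2e-05), and persistent cells lay 0.11 under PAt and Arrested (-0.11 ± 0.03, adjusted p = 0.00585). Neither passed the fold threshold. Itgal and Itgb2 are also used by the myeloid and dendritic cells whose markers were higher in Teff libraries, and the part of those cells in the Teff values was not tested.

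Itga6, a laminin receptor chain that is high on resting T cells, was lowest in Teff. Its log2 level was 12.99, 13.04 and 13.05 in Tnaive and 11.83, 11.84 and 11.67 in Teff. The persistent cells had 12.70, 12.78 and 12.65 (Pers1) and 12.68, 12.68 and 12.67 (Pers2), and PAt had 13.09, 13.18 and 12.99 and Arrested 13.06, 13.16 and 13.27. PAt, Arrested and Tnaive overlapped, Pers1 and Pers2 overlapped just under them, and Teff stood apart. PAt and Arrested were above Teff by 1.35 ± 0.05 (adjusted p = 4.9e-15) and differed from Tnaive by 0.10 (95% interval -0.01 to 0.20, adjusted p = 0.114). Persistent cells were 0.43 under PAt and Arrested (-0.43 ± 0.04, adjusted p = 9.0e-09) and 0.92 ± 0.05 above Teff (2.0e-12), both under the fold threshold.

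Itgav, the chain of receptors that bind vitronectin and latent TGF-beta, was lowest in Tnaive and highest in persistent cells. Its log2 level was 9.57, 9.44 and 9.68 in Tnaive, 10.03 ± 0.03 (SD, n = 3) in Teff, and 10.73, 10.75 and 10.60 in Pers1. In Pers2 it was 10.92, 10.76 and 10.90, in PAt 10.58, 10.56 and 10.35, and in Arrested 10.43, 10.27 and 10.63. PAt and Arrested overlapped, and the other neighbours in the order did not, though Pers1 and Pers2 (10.75 against 10.76) and Pers1 and PAt (10.60 against 10.58) came close. Only Pers1 and Pers2 against Tnaive were called, at 1.13 and 1.30 (adjusted p = 2.6e-10 and 2.5e-11). Persistent cells were 0.31 ± 0.06 above PAt and Arrested (adjusted p = 0.000171). Itgav overlaps 2 noncoding or pseudogene models and Itga6 overlaps 4, none of them in the table.

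The remaining 3 comparisons of Treg cells with Timer- cells share libraries with those above and are given side by side. Persistent cells against Teff gave 2 of 8 called, Itgae higher (3.95 ± 0.07, adjusted p = 2.6e-20) and Itga4 lower, with a background of 4.28% higher and 4.03% lower. PAt and Arrested against Tnaive gave 2 of 8, Itgae and Itgb1, both higher, with a background of 6.63% higher and 1.27% lower. PAt and Arrested against Teff gave 4 of 8, with Itga4, Itgae and Itga6 higher and Itgb1 lower, and a background of 2.84% higher and 4.04% lower. The 6 genes not called against Tnaive had differences of 0.10 to 0.91.

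Whether the change from PAt and Arrested to persistent cells was the same size as the change from Tnaive to Teff was tested as a difference of the 2 fold changes, which share no library. It was called for 3 of the 8, all lower, against 1.52% of genes higher and 6.9% lower. Itgb1 gained 3.30 less among Treg cells (-3.30 ± 0.10, adjusted p = 1.5e-16), the loss of Itga4 was larger there by 1.58 (-1.58 ± 0.12, 3.5e-10), and Itgal gained 1.13 less (-1.13 ± 0.07, 1.9e-11). The differences for Itgae (-0.75 ± 0.10), Itgb7 (0.50 ± 0.06), Itgb2 (-0.41 ± 0.06) and Itga6 (0.82 ± 0.07) were under the fold threshold, and for Itgav it was -0.16 (95% interval -0.38 to 0.06, adjusted p = 0.236). Itgb7 was the one gene whose 2 changes had opposite signs with both intervals away from 0 and the Treg change positive. Itgb2 had opposite signs the other way round. The scatter of both changes places Itgb1 furthest to the right of the 8, with Itga4 lowest.

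**Figure D4:**
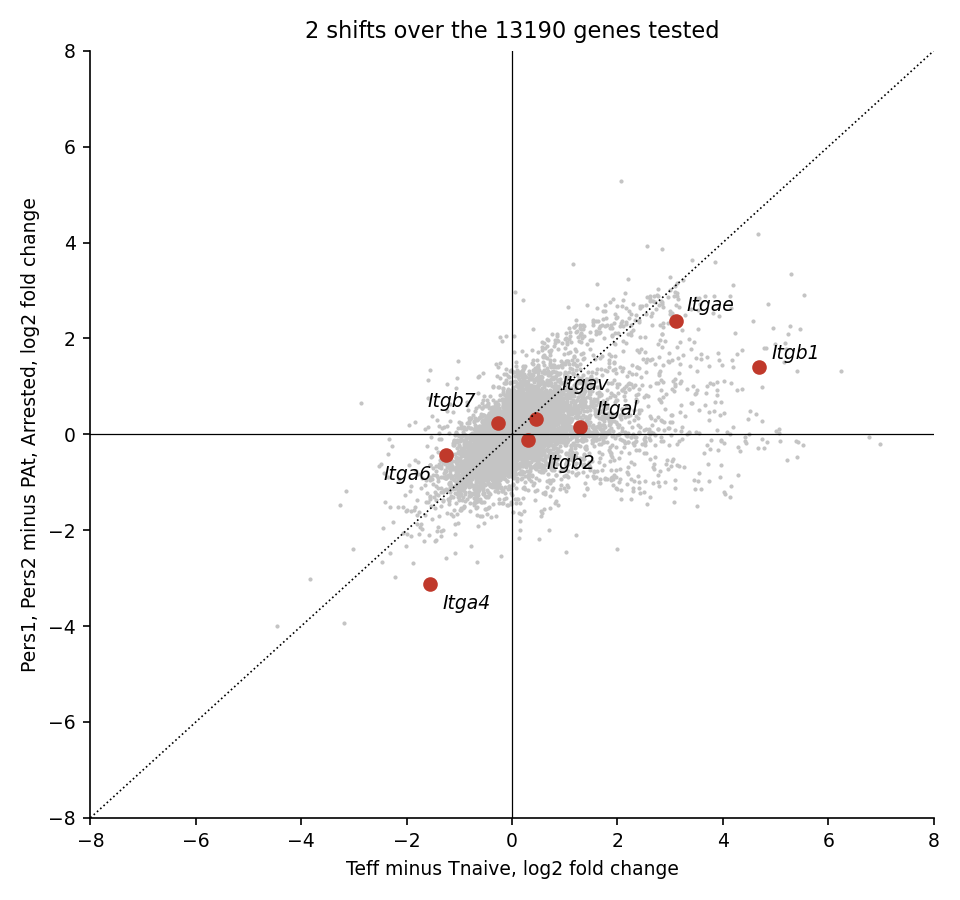
Log2 fold change of Teff over Tnaive (x axis) against that of Pers1 and Pers2 over PAt and Arrested (y axis) for the 13190 genes tested (grey) and the 8 subunit genes (red). The dotted line marks equal changes. Itgb1 (4.69 and 1.40) lies right of the line, Itgae (3.11 and 2.36) nearer to it, and Itga4 (-1.55 and -3.12) below it.

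The genes with the most similar pattern over the 18 libraries were Nrbp2, Lclat1 and Bcl2l1 for Itgae (Pearson's r = 0.992 each), Ssbp2, Cerkl and Sh3bp5 for Itga4 (0.990, 0.987 and 0.982), and Chst2, Maf and Grhl1 for Itgb1 (0.989, 0.988 and 0.988). For Itgav they were Rin2, Lclat1 and Il1r2 (0.977, 0.974 and 0.973), and for Itgal Stard10, Rgl1 and Fgd2 (0.981, 0.981 and 0.979). Itga6 went with Stx1a and Emp3 (0.964 and 0.947), Itgb7 with Selplg, which encodes the selectin ligand PSGL-1, Sema4d and Cd6 (0.955, 0.942 and 0.941), and Itgb2 with Plxna3, Tbc1d2b and Plekhm2 (0.944, 0.941 and 0.934). Among the 8 genes themselves, Itgae and Itgav had r = 0.962, Itgb1 and Itgal 0.854, and Itgal and Itga6 -0.818. The points share 6 populations, so they are not 18 independent points.

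Of 19 other integrin subunit genes, 16 were in the table and 15 passed the filter (Itga11 did not, with means of 1.93 to 2.01). In persistent cells against PAt and Arrested, 2 of 11 other alpha genes were called higher and 3 lower by limma, where 4.74% of all genes were higher and 2.77% lower. Of 4 other beta genes 0 were called, with 2 higher and 1 lower at an unadjusted p under 0.05. With no fold threshold, 70.9% of all genes had an adjusted p under 0.05 in this comparison. Itga2, a collagen receptor chain that pairs with beta1, was 9.17 in both Pers1 and Pers2 and between 6.18 and 7.26 elsewhere as population means (2.21 ± 0.09, adjusted p = 1.6e-14). Itgam, the alpha chain of Mac-1 with beta2, reached 8.88 ± 0.07 (Pers1) and 8.16 ± 0.04 (Pers2) where PAt had 6.23 ± 0.10 and Arrested 6.72 ± 0.02 (2.05 ± 0.07, adjusted p = 2.0e-16), and was as high in Tnaive (8.44) and Teff (8.33). The 3 lower ones were Itga5, the fibronectin receptor chain (-1.49 ± 0.10), Itga2b, the platelet chain (-1.06 ± 0.08), and Itga10, a collagen receptor chain (-1.01 ± 0.07), the last 2 at the fold threshold. Itga5 was also lower in Teff than in Tnaive (-1.35 ± 0.14, adjusted p = 3.2e-08).

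The beta partners of alphaV other than beta1 differed from each other in the order of their population means. Itgb8, which with alphaV can activate latent TGF-beta, was 4.96 ± 0.02 in Tnaive, 6.02 ± 0.48 in Teff, and 7.48 ± 0.08 (Pers1), 8.27 ± 0.01 (Pers2), 8.97 ± 0.07 (PAt) and 8.31 ± 0.17 (Arrested) among Treg cells. PAt and Arrested were above Tnaive by 3.68 ± 0.14 (adjusted p = 2.4e-15) and above Teff by 2.62 ± 0.14 (9.3e-13), while persistent cells were 0.77 under them, short of the fold threshold. Itgb5 was higher in Teff (1.19 ± 0.11) and in PAt and Arrested (1.30 ± 0.10) than in Tnaive. Its means were highest in Pers2 (6.86) and Pers1 (6.67), then 6.16 in Arrested, 6.08 in PAt, 6.01 in Teff and 4.82 in Tnaive. Itgb3 was highest in Tnaive at 12.75 and lower in Teff (-1.23 ± 0.06) and in PAt and Arrested (-1.20 ± 0.05). Itgax, a chain typical of dendritic cells, was 9.73 ± 0.15 in Teff and had means of 4.49 to 5.25 elsewhere, in the libraries where the dendritic cell markers were high. Itga1, Itga3, Itga7, Itga9, Itgad and Itgb4 were called neither in persistent cells against PAt and Arrested nor in Teff against Tnaive.

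**Figure D5:**
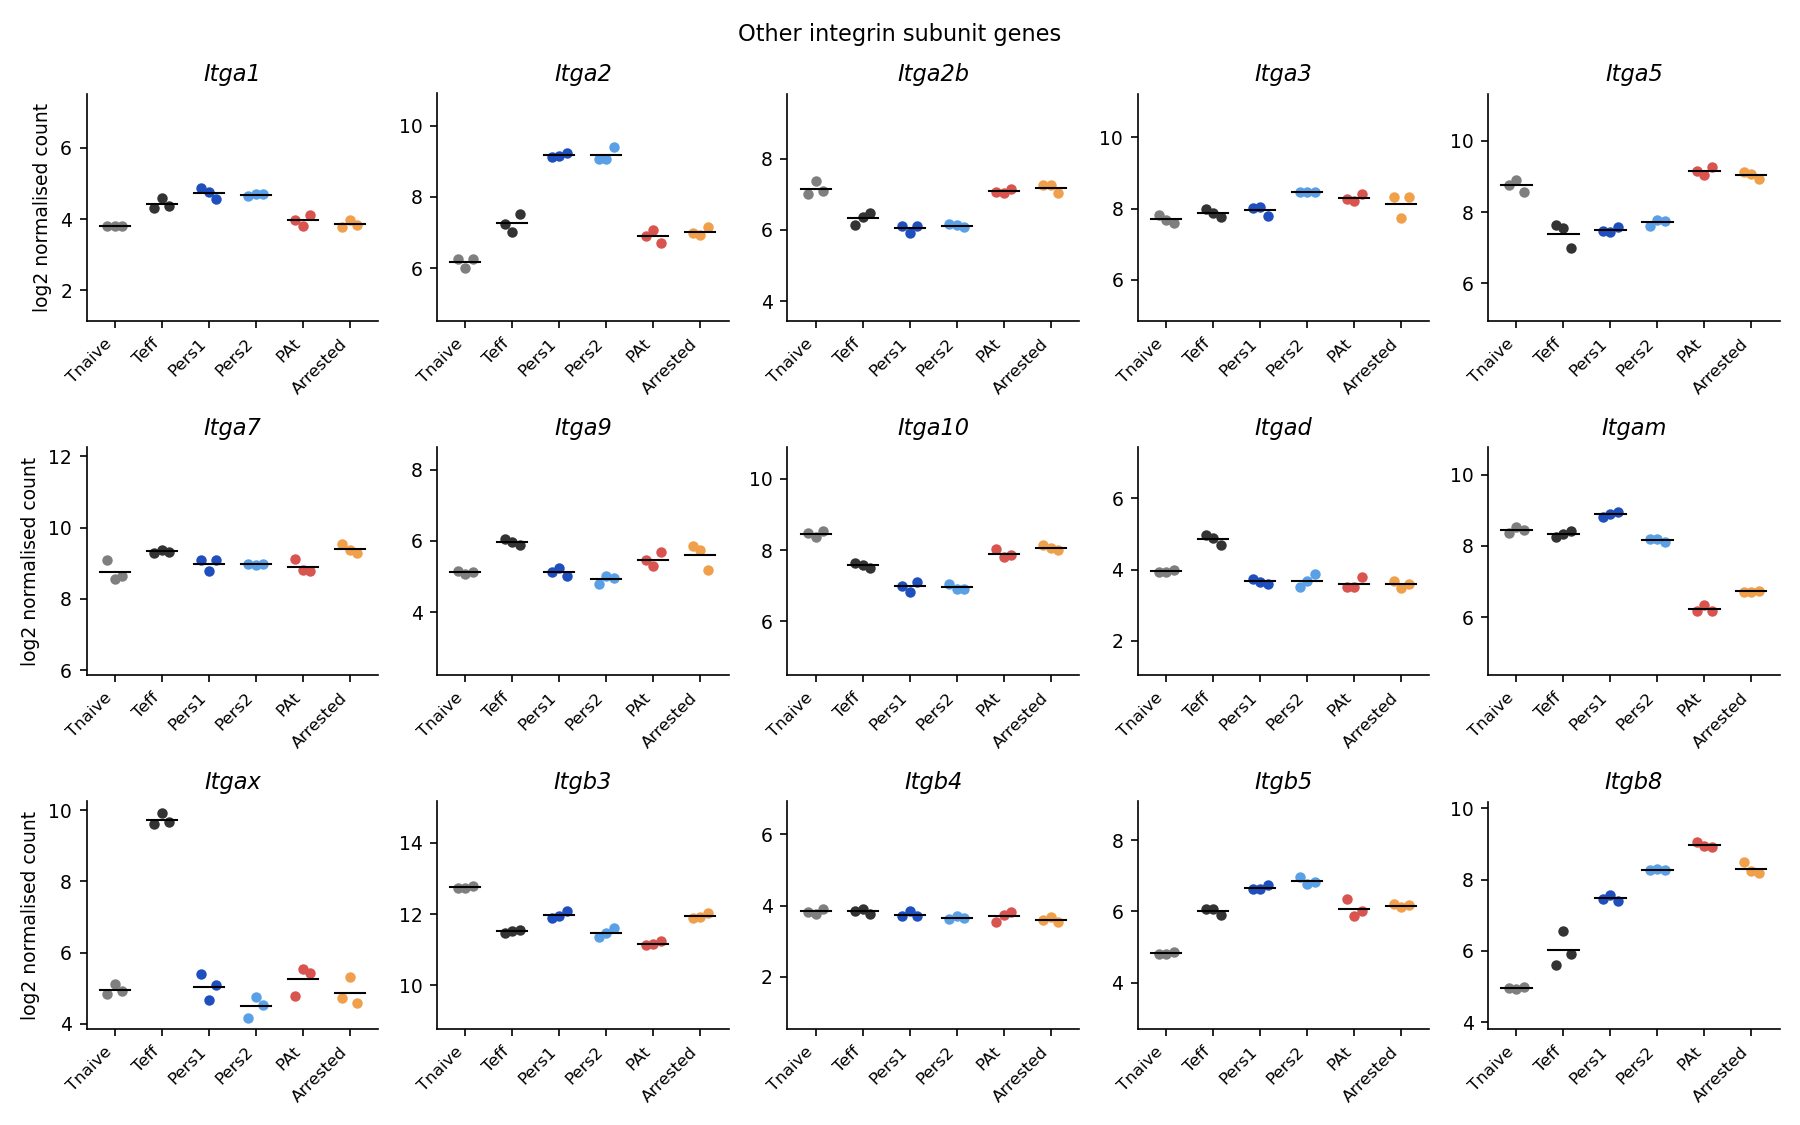
Log2 normalised count (y axis, the same span in every panel) of the 15 other integrin subunit genes that passed the filter, in the 6 populations (x axis). Points are the 3 replicates and bars their mean. Itga2 and Itgam are higher in Pers1 and Pers2 than in PAt and Arrested, Itgb8 is highest in PAt at 8.97, and Itgax is high in Teff at 9.73.

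Genes that act on integrins were read against the same shares of all genes tested (4.74% higher and 2.77% lower in persistent cells against PAt and Arrested, 8.88% higher and 2.28% lower in Teff against Tnaive). These shares do not apply to the unadjusted counts below. With no fold threshold, 70.9% of all genes had an adjusted p under 0.05 in the first comparison. Of 37 tested genes for activation and adaptors, 1 was higher and 2 were lower in persistent cells than in PAt and Arrested: Rap1gap2, which switches off the small GTPase Rap1 (1.92 ± 0.09), and Ptk2, the focal adhesion kinase (-1.38 ± 0.07), and Actn1, an actin crosslinker bound to beta subunits (-1.27 ± 0.04). In Teff against Tnaive Rap1gap2 rose by 3.18 ± 0.13 (adjusted p = 1.1e-14) and was the one call of the 37. The medians of this list were 0.10 and 0.17, against -0.01 and 0.00 over all genes. Of 16 tetraspanins, which hold integrins in membrane clusters, 0 were higher and 2 lower in the first comparison by limma (6 and 5 at an unadjusted p under 0.05), Tspan9 (-3.01 ± 0.13) and Cd9 (-1.11 ± 0.05). In Teff against Tnaive, where 8.88% of all genes were higher and 2.28% lower, 5 of the 16 were higher and 1 lower, with Tspan2 (1.86 ± 0.18), Cd82 (1.62 ± 0.06), Tspan31 (1.38 ± 0.07) and Tspan13 (1.25 ± 0.05) among the higher and Tspan9 (-3.83 ± 0.18) the lower. Of 11 ligand genes, 0 were called by limma in the first comparison (6 higher and 3 lower at an unadjusted p under 0.05), and in the second Cdh1, which encodes the CD103 ligand E-cadherin, was higher in Teff (2.15 ± 0.16). Its mean was 7.47 in Teff and 4.56 to 5.32 elsewhere, with the same libraries holding the dendritic cell markers.

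Of 16 tested genes listed as possible regulators of these integrin genes, 2 were higher and 2 lower in persistent cells than in PAt and Arrested. Of all genes, 4.74% were higher and 2.77% lower there. Whether each acts on these integrin genes was not tested. Runx3, a repressor and activator needed for CD103 in CD8 T cells, was higher by 1.18 ± 0.05 (adjusted p = 1.1e-14), with 12.13 and 12.12 in Pers1 and Pers2 and 10.92 and 10.97 in PAt and Arrested. The Runx3 means of 11.40 in Tnaive and 11.73 in Teff lay above PAt and Arrested. Tbx21, which encodes T-bet, was higher by 1.59 ± 0.10 (adjusted p = 1.4e-11), and rose in Teff by 3.49 ± 0.14 (1.3e-14). Tgfbr3, a TGF-beta co-receptor, was lower (-1.43 ± 0.07), as was Klf2, a factor of resting and recirculating T cells (-1.11 ± 0.09). In Teff against Tnaive, where the shares were 8.88% and 2.28%, 2 of the 16 were higher and 3 lower: Gata3 (1.25 ± 0.09) rose with Tbx21, and Smad7 (-1.64 ± 0.10), Klf2 (-1.08 ± 0.13) and Satb1 (-1.09 ± 0.05, outside the rule for naming and given to complete the count) fell. The medians of this list were -0.06 and -0.29.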

How the data were processed

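RNA-seq was analysed for 18 libraries of 6 sorted CD4+ T-cell populations, grouped by the sort given in the labels, with 3 replicates each. The submitters' processing notes name CASAVA 1.8.2, FastQC 0.11.2, TopHat2 2.0.9 (mm10) and DESeq2, and the paper's methods describe stranded mRNA libraries read as paired ends and alignment with or without the Timer gene. The read counter is not given in the sources used here. What the authors deposited are log2 normalised counts, 1 value per gene and library, which have the form of DESeq2's regularised log. They are not counts, so depth is unknown, and the transform draws fold changes of low genes towards 0.

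The values were used as deposited, with no pseudocount. The filter on low values kept genes whose mean over all libraries was 3 or more on the log2 scale (13190 genes, leaving out 2212). All populations were fitted together with limma 3.58.1 in R 4.3.3 (12 residual degrees of freedom, variance trend, Benjamini-Hochberg adjustment over all genes tested). Calls needed an adjusted p under 0.05 and a log2 fold change over 1 in size. Every adjusted p in the text comes from this fit unless another setting is named. On simulated data of the same size, limma was checked and recovered the changed genes.

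The 8 genes, the lists and the tests were chosen with earlier results of these data known. Named were the 8 genes, the other integrin subunits, up to 6 called genes of each further list, the 3 genes most like each of the 8 (1 of which is not reported here), and the genes that overlap them, which were added after their values were seen. Summed marker levels are the log2 of the sum of the genes' linear values. The summed CD8 T-cell markers (2 of 2) were also higher in Teff, at 11.51 to 12.00 against 9.65 to 10.70. The summed NK cell markers (4 of 5 in the table) ran from 9.13 to 9.42 in Tnaive and 8.97 to 9.05 in Teff. In the Treg populations they were lower, at 7.20 to 7.69, and their part in the differences from Timer- cells was not tested. Over all libraries, platelet markers (2 of 5) ran from 6.88 to 8.01, and the 1 of 5 granulocyte or mast cell markers in the table from 3.90 to 4.47. Gene positions came from GENCODE vM21 (GRCm38) by symbol, and promoters from RefSeq (GRCm38.p6).

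No 2 libraries held identical values. Where each replicate is a separate pool of mice, p-values cover the spread between pools.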

Additional observations from a re-analysis of the deposited data

Results flagged for a closer look

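For 7 of the 8 subunit genes, the change from PAt and Arrested to the persistent populations differed from the change from Tnaive to Teff at an adjusted p under 0.05 in limma (difference of the 2 log2 fold changes), where 48.7% of all genes did so. The difference was -3.30 for Itgb1, -1.58 for Itga4, -1.13 for Itgal, -0.75 for Itgae, -0.41 for Itgb2, 0.50 for Itgb7 and 0.82 for Itga6. Of these, the first 3 also passed the fold threshold. The Teff libraries held more RNA of dendritic cell, B cell, monocyte or macrophage and CD8 T-cell markers than any other population. The part of this in the differences was not tested.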

How the results depend on the processing

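Each comparison was refitted with no filter on low values, with a mean of at least 5, with no fold threshold, with only the libraries compared, with no variance trend, with libraries centred on their medians, with the replicate number as a block and without each library in turn. Every call of the 8 genes held in all of these, and leaving out 1 library never changed how many were called (3 for persistent cells against PAt and Arrested, 5 for Teff against Tnaive, 2, 2 and 4 for persistent against Teff and for PAt and Arrested against Tnaive and Teff, 0 for Pers2 against Pers1, 1 for Arrested against PAt, and 3 for the difference of changes). The labels do not say what the replicate numbers mark, and same-numbered libraries (45 pairs) had deviations from the population means with a median correlation of 0.166 (-0.206 to 0.436), against -0.0642 (-0.31 to 0.319) for the 90 pairs with different numbers. Same-numbered libraries were thus more alike at the median, but not in every pair, and the numbers were not taken to pair the samples. With the replicate block these counts were also 3, 5, 2, 2, 4, 0, 1 and 3. Without the fold threshold they were 8, 8, 7, 7, 8, 3, 2 and 7, since small differences then count, and the genes called over the whole table went from 990, 1472, 1096, 1042, 908, 25, 16 and 1110 to 9357, 7785, 7739, 6684, 6950, 1395, 665 and 6420. Without Arrested replicate 3, 26 genes were called between Arrested and PAt in place of 16, and the cause was not tested. Signs turned only in differences near 0. Itgal in Pers2 against Pers1 went from 0.02 to -0.00 with centred libraries, and ranged from -0.01 (without Pers2 replicate 2) to 0.05 with 1 library left out. In Arrested against PAt, Itgal went from -0.02 to 0.00 with centred libraries, and with 1 library left out ranged from -0.09 to 0.02 (above 0 without PAt replicate 1, or Arrested replicate 2 or 3, the last 2 giving 0.01), and Itgav went from -0.05 to between -0.15 and 0.04 (without Arrested replicate 2). Alpha minus beta differences do not depend on library scaling.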

Other observations

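Lrrc32, which encodes GARP, the Treg surface carrier of latent TGF-beta that alphaV integrins act on, was chosen after its values were seen. Its log2 level was 5.57 ± 0.12 in Tnaive and 5.62 ± 0.07 in Teff, and 12.75 to 13.91 in the 4 Treg populations as means. PAt and Arrested were above Tnaive by 8.08 ± 0.10 (adjusted p = 3.5e-23). Icam1, a ligand of LFA-1 that T cells also carry, was higher in PAt and Arrested than in Tnaive by 1.07 ± 0.05 and in persistent cells than in Teff by 1.07 ± 0.05. Cd81, a tetraspanin, gave 1.74 ± 0.08 and 1.57 ± 0.08 in these 2 comparisons, and Tgfbr1, a TGF-beta receptor chain, 1.29 ± 0.06 and 1.35 ± 0.06. These genes, too, were picked after their values were seen.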
